A study of Mus musculus with 16 samples.

Results

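The mitochondrial carriers of the Slc25 family were described in the brain of mice with a mutant Twinkle transgene. Members were all genes whose single symbol in the GEO platform annotation starts with Slc25a, plus Ucp2 and Ucp3. The rule found 45 members among 18168 genes measured, through 95 probe sets, with 21 members read by 1 probe set and 24 by several. Slc25a21, Slc25a43 and Ucp2, which fit the rule by symbol, had no probe set of a single symbol and were not analysed here. A probe set that names Gm16867 beside Slc25a37 was left out.

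Twinkle opens the mitochondrial DNA helix ahead of the polymerase, and mice overexpressing a mutant form serve to model a human disease of eye muscle weakness, progressive external ophthalmoplegia. RNA of cerebellum and hippocampus was measured on Affymetrix arrays in 4 groups of 4 samples. The mutant Twinkle overexpressors were 24, 24, 21 and 21 months old in replicates 1 to 4 and the wild types 26, 24, 21 and 23 months, in both regions. The labels give no promoter for the transgene, no strain and no sex, and do not say whether a cerebellum and a hippocampus of the same number came from 1 animal.

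Slc25 carriers are small helical proteins, built from a motif repeated along the chain, that nearly all sit in the inner mitochondrial membrane. Each moves a set of substrates between cytosol and matrix, among them ADP and ATP, phosphate, amino acids, Krebs cycle acids, carnitine esters, iron and cofactors. They are made in the cytosol and inserted by the TIM22 translocase. In brain they link glycolysis, glutamate metabolism and calcium signals to respiration. Adenine nucleotide transport has a link to this model because mutations of SLC25A4, as of the Twinkle gene, cause progressive external ophthalmoplegia in people.

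Each value is a log difference from the region's median array, taken here as log2 because the base is not stated. A value of 0 is that median, not absence of signal. No expression level is left, so neither the regional identity of the tissue nor the abundance of one carrier against another could be read from the values. Differences are mutant minus wild type, or older minus younger, with the standard error (SE) of limma's fit across all genes and p-values adjusted over all 18168 genes. Precision is limited by the number of arrays, and the median SE over the members was 0.0728 in each region.

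No member passed an adjusted p of 0.05 in any of 6 comparisons by limma. In the cerebellum the members spread from -0.34 (Slc25a31, the germline-type ADP/ATP carrier) to 0.20 (Slc25a16), with 35 of 45 within 0.1 of 0. In the hippocampus they spread from -0.14 (Slc25a16) to 0.26 (Slc25a18, a glutamate carrier), again with 35 within 0.1. The background was as empty, with 0% of all genes called in cerebellum, hippocampus, the contrast between regions, the average over regions and both age comparisons.

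At an unadjusted p of 0.05 the members lay close to all genes. In the cerebellum 3 of 45 members (6.67%) were past it, 1 higher and 2 lower in mutants, against 5.39% of all genes. In the hippocampus 3 members were past it, all higher, against 8.03%. For the contrast of genotype effects between regions the count was 3 against 5.35%, and for the average over regions 2 (4.44%) against 8.51%. Members above 0 numbered 23 of 45 in the cerebellum, where 53.6% of all genes were above 0. They also numbered 23 in the hippocampus, against 58.9%, 24 in the difference between regions, against 54.9%, and 27 in the average, against 58.7%. Leaving out each array in turn kept the sign of 28 members in the cerebellum and 29 in the hippocampus. The median member difference was 0.00062 in the cerebellum and 0.0086 in the hippocampus, beside 0.0074 and 0.02 for all genes.

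**Figure D1:**
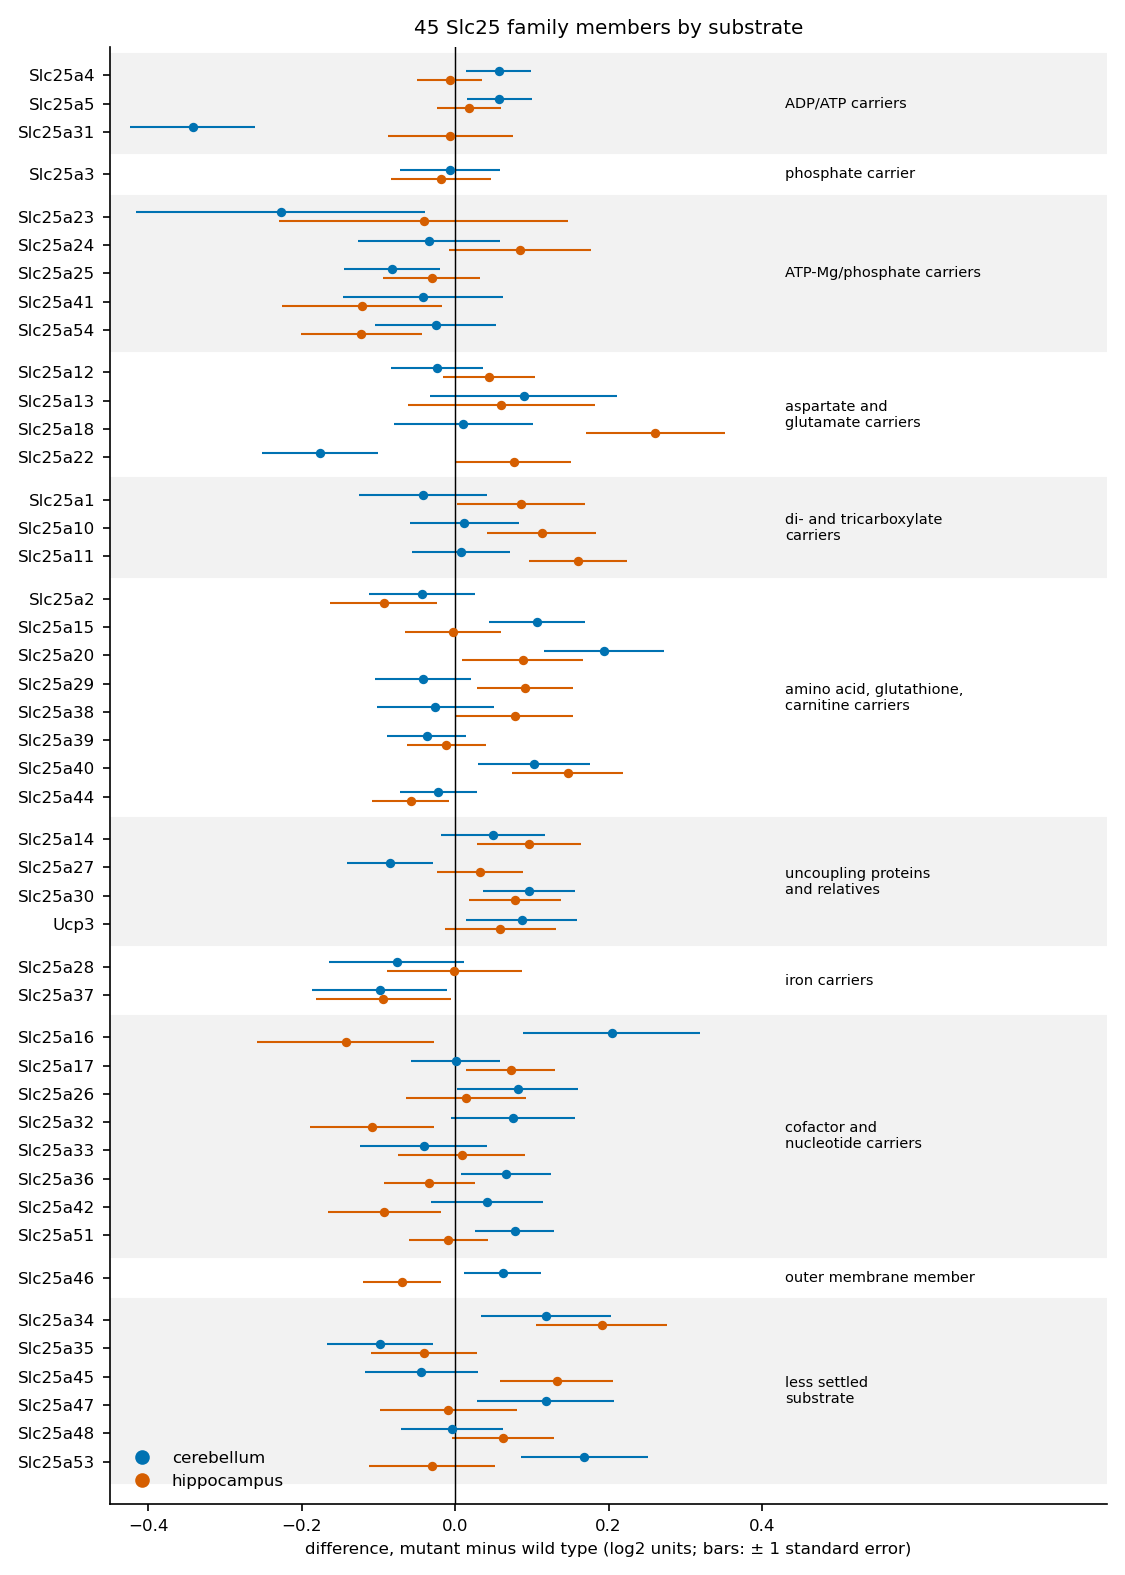
Mutant minus wild-type difference (x axis, log2 units) of each of 45 members, grouped by substrate, in cerebellum (blue) and hippocampus (orange). Points are differences of 4 mutant against 4 wild-type arrays. Bars are ± 1 SE of limma's fit, which pools the spread of both regions, so each member has the same SE in both. Slc25a31 in the cerebellum, at -0.34, lies farthest from 0, and Slc25a18 in the hippocampus, at 0.26, is the highest.

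The 4 mutant arrays lay wholly to one side of the 4 wild types for 4 members in the cerebellum (8.89%, against 2.46% of all genes) and for 2 in the hippocampus (4.44%, against 4.76%). Slc25a31 was the one lower member. Slc25a4, Slc25a26 and Slc25a46 were higher in the cerebellum by 0.06, 0.08 and 0.06, and Slc25a18 and Slc25a10 were higher in the hippocampus by 0.26 and 0.11. The test across all genes gave unadjusted p-values of 0.199, 0.316 and 0.239 for the 3 small cerebellar differences.

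Some arrays stood apart. Spike-in poly-A controls, added to the RNA before labelling, read 0.55 and 0.59 on mutant cerebellum replicates 2 and 4, against -0.20 to 0.05 on the other cerebellum arrays. On wild-type hippocampus replicate 1, genes of cerebellar granule neurons averaged 2.48 and of Purkinje cells 1.79, with hippocampal neuron genes at -0.53. Mutant hippocampus replicate 1 had granule neuron genes at 0.87 and meningeal genes at 1.12. Choroid plexus genes stood at 2.08 on mutant hippocampus replicate 4 and at -1.40 on mutant cerebellum replicate 4. Wild-type cerebellum replicate 4 had low hybridization controls, at -0.72. In bulk tissue fewer cells of a type and less RNA per cell cannot be told apart. None of the 45 members belongs to these lists.

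Some marker lists also stood higher in the mutants of the hippocampus. Of 11 ependymal genes 10 were above 0 there (median 0.37), with 7 past an unadjusted p of 0.05 and 0 past an adjusted one, and their mean was -0.03 to 0.52 on mutant arrays and -0.26 to -0.02 on wild-type ones. All 11 meningeal genes were above 0 (median 0.40, 4 past an unadjusted p of 0.05), at -0.12 to 1.12 and -0.40 to -0.0026. All 8 measured oligodendrocyte genes were above 0 (median 0.14, 0 past an unadjusted p of 0.05), at -0.21 to 0.17 and -0.36 to 0.10. Of 13 choroid plexus genes 12 were above 0 in the hippocampus (median 0.30) and 1 in the cerebellum (median -0.45), 0 of them past an unadjusted p of 0.05. Hippocampal neuron genes were above 0 for 3 of 11 in the hippocampus (median -0.13, 3 lower and 1 higher past an unadjusted p of 0.05), at -0.13 to 0.04 and -0.53 to 0.38. The part of these lists in the hippocampal differences of the carriers was not tested.

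The ADP/ATP carriers exchange matrix ATP for cytosolic ADP. Slc25a4 (Ant1) is the form of heart, muscle and brain, Slc25a5 (Ant2) the form of dividing and many other cells, and Slc25a31 (Ant4) is known chiefly from male germ cells. Their promoters are shown because no other substrate group spread as widely in the cerebellum. These are the 250 bases before the start site on GRCm38.p6 from RefSeq, 5′ to 3′ along the gene: Slc25a4 at chr8:46211063-46211312 (minus strand), Slc25a5 at chrX:36795347-36795596 (plus strand) and Slc25a31 at chr3:40708621-40708870 (plus strand). Capitals mark the core of an NRF1 site (GCGCNTGCG), the GC box (GGGCGG) and the CCAAT box (CCAAT), searched on both strands.
Slc25a4: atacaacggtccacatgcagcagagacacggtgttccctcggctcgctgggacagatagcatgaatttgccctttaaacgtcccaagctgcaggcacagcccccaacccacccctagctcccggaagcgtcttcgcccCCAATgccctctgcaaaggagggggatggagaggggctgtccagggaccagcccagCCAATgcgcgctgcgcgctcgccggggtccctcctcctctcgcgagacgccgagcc
Slc25a5: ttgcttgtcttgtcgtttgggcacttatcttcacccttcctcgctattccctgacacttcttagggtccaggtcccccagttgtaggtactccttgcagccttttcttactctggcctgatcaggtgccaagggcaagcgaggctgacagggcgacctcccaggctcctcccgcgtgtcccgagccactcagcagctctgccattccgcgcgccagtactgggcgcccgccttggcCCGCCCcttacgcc
Slc25a31: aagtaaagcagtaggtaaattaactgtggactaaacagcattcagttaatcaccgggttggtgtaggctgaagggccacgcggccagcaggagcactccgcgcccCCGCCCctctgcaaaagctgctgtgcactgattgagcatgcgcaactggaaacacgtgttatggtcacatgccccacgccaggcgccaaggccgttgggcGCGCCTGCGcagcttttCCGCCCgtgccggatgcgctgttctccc

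The Slc25a31 window holds 1 NRF1 core and 2 GC boxes, the Slc25a5 window 1 GC box, and the Slc25a4 window 2 CCAAT boxes. NRF1 is a transcription factor of nuclear genes for mitochondrial proteins. Its core was found in 4.55% of member windows (Slc25a3 and Slc25a31) and in 5.19% of 32851 windows of RefSeq genes, measured on the arrays or not. A match is a description of the letters and not a binding site.

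Slc25a31 had cerebellar values of -0.11, -0.06, -0.25 and -0.28 in mutant replicates 1 to 4 and 0.06, 0.18, 0.12 and 0.31 in wild-type replicates 1 to 4. All mutants lay below 0 and all wild types above it, with no overlap. The group means were -0.17 ± 0.11 in mutants and 0.17 ± 0.11 in wild types (n = 4, SD). The difference was -0.34 (SE 0.08, unadjusted p = 0.000652, limma adjusted p = 0.884), with a 95% interval of -0.52 to -0.17 before adjustment. With base 2 this is 0.789 times the wild-type level. It ranged from -0.38 to -0.26 over 17 alternatives. It was -0.35 without the 2 arrays of raised poly-A controls and -0.26 without the low-choroid and low-hybridization arrays.

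In the hippocampus Slc25a31 had values of -0.0053, 0.09, -0.16 and 0.0053 in mutant replicates 1 to 4 and -0.12, 0.08, -0.17 and 0.15 in wild-type replicates 1 to 4. The groups overlapped across their whole range, with a difference of -0.0065 (SE 0.08, unadjusted p = 0.938, limma adjusted p = 0.988). The genotype effect was higher in the hippocampus than in the cerebellum by 0.34 (SE 0.12, unadjusted p = 0.01, limma adjusted p = 0.867). Slc25a31 rests on 1 probe set, and whether that probe set reads above background in brain cannot be told from centred values.

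Slc25a4 had cerebellar values of 0.006, 0.0028, 0.03 and 0.04 in mutant replicates 1 to 4 and -0.05, -0.05, -0.02 and -0.02 in wild-type replicates 1 to 4. Every mutant lay above every wild type, over a span narrower than 0.1. The difference was 0.06 (SE 0.04, unadjusted p = 0.199, limma adjusted p = 0.903), with an interval of -0.03 to 0.15, and 0.03 with the median over its 4 probe sets. Those probe sets ranged from -0.0065 to 0.13. Hippocampal values were -0.02, -0.02, 0.04 and 0.01 in mutants and -0.01, -0.0011, 0.09 and -0.04 in wild types, again in order of replicate number. They overlapped, with a difference of -0.007 (SE 0.04, unadjusted p = 0.872, limma adjusted p = 0.975) and an interval of -0.10 to 0.08. The replicates of Slc25a4 were among the most alike, with an SD within genotype of 0.018 in the cerebellum, at the 0.103 percentile of the 1939 genes read by at least 4 probe sets. In the hippocampus the SD was 0.046, at the 12.6 percentile.

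Slc25a5 had cerebellar values of -0.0017, 0.0094, 0.03 and 0.07 in mutant replicates 1 to 4 and -0.02, -0.06, -0.05 and 0.0075 in wild-type replicates 1 to 4. The groups overlapped, since wild-type replicate 4 lay above mutant replicate 1. The difference was 0.06 (SE 0.04, unadjusted p = 0.188, limma adjusted p = 0.9) in the cerebellum, or 0.02 with the median over its probe sets, and 0.02 (SE 0.04, unadjusted p = 0.673, limma adjusted p = 0.93) in the hippocampus. Hippocampal values were 0.06, -0.03, 0.02 and -0.03 in mutants and 0.02, -0.03, -0.0061 and -0.03 in wild types and overlapped. Most of its 8 probe sets are of the type that Affymetrix marks as shared with other sequences, and they ranged from -0.028 to 0.17 in the cerebellum. Slc25a3, the phosphate carrier that supplies ATP synthase, differed by -0.0062 in the cerebellum and by -0.02 in hippocampus, with intervals of -0.14 to 0.13 and -0.16 to 0.12.

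**Figure D2:**
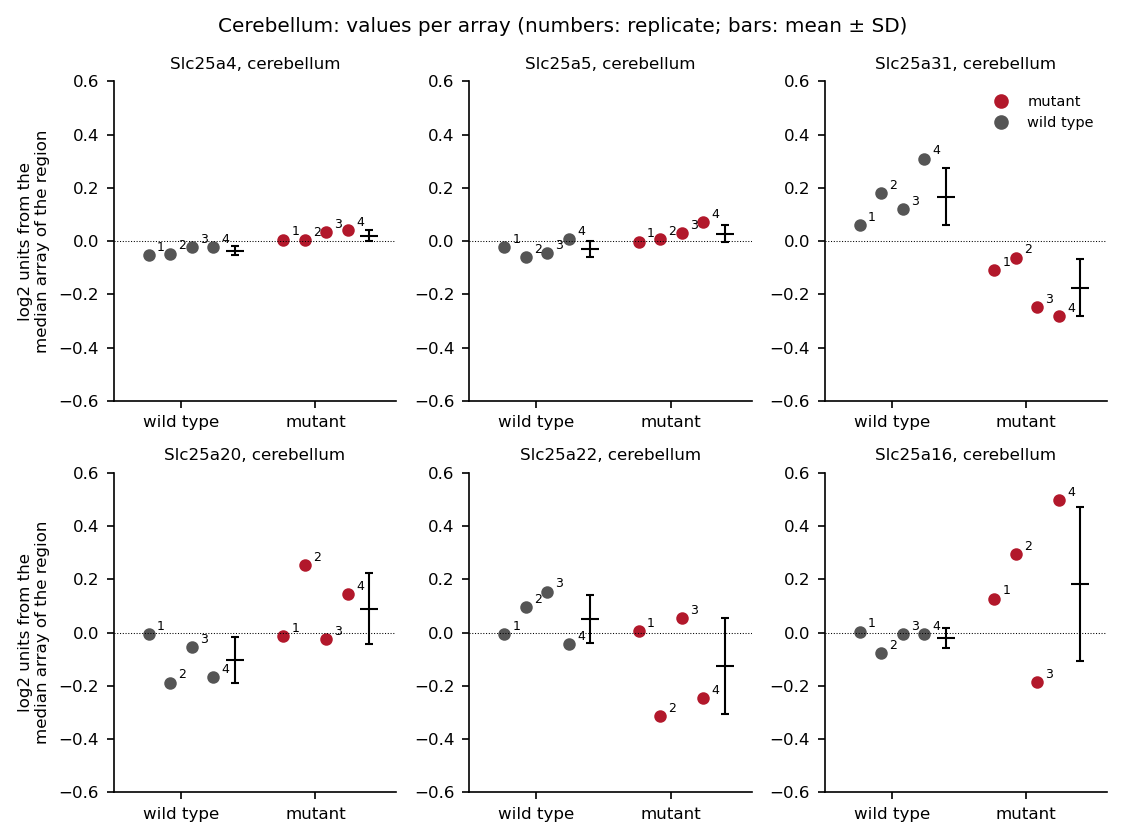
Cerebellar values of 6 members on each array (y axis, log2 units from the median array of the region), with wild types in grey, mutants in red, the replicate number beside each point, and the mean ± SD of 4 arrays as a bar. Slc25a31 separates the genotypes, Slc25a4 does so within a span under 0.1, and for Slc25a20, Slc25a22 and Slc25a16 mutant replicates 2 and 4 lie farthest from the wild types.

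The aspartate and glutamate carriers serve the malate-aspartate shuttle and glutamate oxidation. Slc25a12 and Slc25a13 (aralar and citrin) swap aspartate for glutamate under control of cytosolic calcium, and Slc25a22 and Slc25a18 import glutamate with a proton. All 4 were above 0 in the hippocampus and 2 of 4 in the cerebellum, with 1 past an unadjusted p of 0.05 in either region.

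Slc25a18, known as the glutamate carrier of astrocytes, had hippocampal values of 0.16, 0.03, 0.0084 and 0.05 in mutant replicates 1 to 4 and -0.23, -0.0084, -0.50 and -0.06 in wild-type replicates 1 to 4. All mutants were above 0 and all wild types below it. The lowest wild types were replicate 3 and replicate 1. The group means were 0.06 ± 0.07 in mutants and -0.20 ± 0.22 in wild types (n = 4, SD). The difference was 0.26 (SE 0.09, unadjusted p = 0.0107, limma adjusted p = 0.507), and 0.16 without wild-type replicate 3. Of 9 astrocyte genes, 4 were above 0 in the hippocampus, with a median of -0.06, and the list averaged -0.11 on replicate 3 and 0.25 on replicate 1 of the wild types. In the cerebellum Slc25a18 had values of 0.11, 0.17, -0.08 and -0.04 in mutant replicates 1 to 4 and -0.0059, 0.15, 0.0059 and -0.03 in wild-type replicates 1 to 4, which overlapped, with a difference of 0.01. The 2 regional effects differed by 0.25 (SE 0.13, unadjusted p = 0.0681, limma adjusted p = 0.867), and by 0.15 without that wild type.

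Slc25a22 went the other way in the cerebellum, with values of 0.0054, -0.31, 0.05 and -0.25 in mutant replicates 1 to 4 and -0.0054, 0.10, 0.15 and -0.04 in wild-type replicates 1 to 4. Mutant replicates 2 and 4 were low, while mutant replicates 1 and 3 lay among the wild types. The difference was -0.18 (SE 0.08, unadjusted p = 0.0322, limma adjusted p = 0.884). Without mutant replicates 2 and 4, the arrays with raised poly-A controls, it was -0.02, and without mutant replicate 2 alone -0.11. In the hippocampus it had values of 0.03, 0.10, -0.03 and 0.05 in mutant replicates 1 to 4 and -0.07, -0.03, -0.10 and 0.03 in wild-type replicates 1 to 4, a difference of 0.08. The contrast of the regions was 0.25 (SE 0.11, unadjusted p = 0.0303, limma adjusted p = 0.867), and 0.10 without the 2 poly-A arrays. Slc25a12 differed by -0.02 and 0.04, and Slc25a13 by 0.09 and 0.06, in cerebellum and hippocampus.

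The di- and tricarboxylate carriers move Krebs cycle acids. All 3 measured were above 0 in the hippocampus (0.09 to 0.16), and in the cerebellum they lay between -0.04 and 0.01. Slc25a11, the oxoglutarate carrier of the malate-aspartate shuttle, had hippocampal values of -0.01, 0.01, 0.05 and 0.10 in mutant replicates 1 to 4 and -0.29, -0.11, -0.14 and 0.04 in wild-type replicates 1 to 4. Wild-type replicates 1, 2 and 3 were below every mutant, and wild-type replicate 4 lay among the mutants. The difference was 0.16 (SE 0.06, unadjusted p = 0.0226, limma adjusted p = 0.564). It was 0.10 without wild-type replicate 1, the array with raised cerebellar neuron genes, and 0.10 without the 3 arrays of raised cerebellar, meningeal or choroid plexus genes. In the cerebellum Slc25a11 had values of 0.01, -0.02, 0.03 and -0.01 in mutant replicates 1 to 4 and 0.07, -0.07, -0.09 and 0.07 in wild-type replicates 1 to 4, a difference of 0.0082.

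Slc25a10, the dicarboxylate carrier, had hippocampal values of 0.04, 0.11, -0.002 and 0.04 in mutant replicates 1 to 4 and -0.05, -0.09, -0.06 and -0.07 in wild-type replicates 1 to 4. Its mutants all lay above its wild types, within a span of about 0.2, and the difference was 0.11 (SE 0.07, unadjusted p = 0.132, limma adjusted p = 0.691). The SE shares the spread of both regions, and the SD of Slc25a10 within genotype was 0.036 in the hippocampus and 0.14 in the cerebellum. Both probe sets of Slc25a10 were higher in the hippocampus, by 0.10 and 0.12. Slc25a1, the citrate carrier, differed by 0.09 in the hippocampus and -0.04 in the cerebellum.

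**Figure D3:**
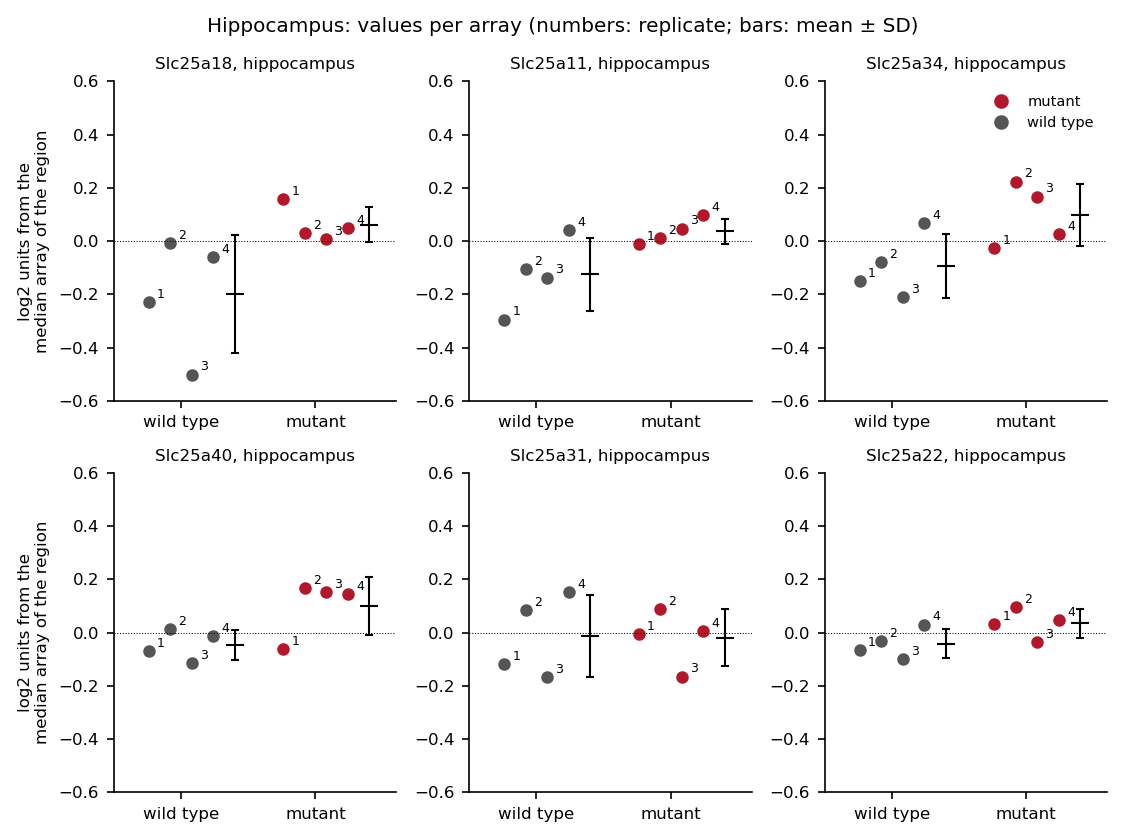
Hippocampal values of 6 members on each array (y axis, log2 units from the median array of the region), drawn as for the cerebellum with the mean ± SD of 4 arrays as a bar. Slc25a18 separates the genotypes with wild-type replicate 3 lowest at -0.50, Slc25a11, Slc25a34 and Slc25a40 overlap by 1 or more arrays, and Slc25a31 shows no separation.

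Carnitine, glutathione and further amino acid carriers numbered 8, of which 3 were above 0 in the cerebellum and 4 in the hippocampus. Slc25a20, the carnitine-acylcarnitine carrier that brings fatty acids into the matrix, had cerebellar values of -0.01, 0.25, -0.03 and 0.14 in mutant replicates 1 to 4 and -0.0066, -0.19, -0.05 and -0.17 in wild-type replicates 1 to 4. Mutant replicates 2 and 4 were above all wild types, and mutant replicates 1 and 3 overlapped them. The difference was 0.19 (SE 0.08, unadjusted p = 0.0253, limma adjusted p = 0.884), and 0.09 without mutant replicates 2 and 4. Hippocampal values of Slc25a20 were -0.02, 0.06, 0.17 and -0.07 in mutants and -0.24, 0.0043, -0.04 and 0.06 in wild types, in order of replicate number. They overlapped, with a difference of 0.09. Averaged over regions, Slc25a20 had the smallest p of the family, with a difference of 0.14 (SE 0.04, unadjusted p = 0.00944, limma adjusted p = 0.534), and both of its probe sets were above 0 in each region. That fit pairs the regions by replicate number. With no such pairing its adjusted p was 0.627, and that of Slc25a31 was 0.619.

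Slc25a40, a glutathione carrier, had hippocampal values of -0.06, 0.17, 0.15 and 0.14 in mutant replicates 1 to 4 and -0.07, 0.01, -0.12 and -0.01 in wild-type replicates 1 to 4. Mutant replicates 2 to 4 lay together above every wild type, and mutant replicate 1 lay among the wild types. The difference was 0.15 (SE 0.07, unadjusted p = 0.0606, limma adjusted p = 0.613). In the cerebellum it had values of 0.0044, 0.16, -0.08 and 0.05 in mutant replicates 1 to 4 and -0.09, -0.0044, -0.25 and 0.07 in wild-type replicates 1 to 4, a difference of 0.10, and the average over regions was 0.12 (SE 0.06, unadjusted p = 0.0539, limma adjusted p = 0.588). Its relative Slc25a39, also a glutathione carrier, differed by -0.04 and -0.01. The others were Slc25a15 and Slc25a2 (ornithine), Slc25a29 (basic amino acids), Slc25a38 (glycine) and Slc25a44 (branched-chain amino acids), and they stayed between -0.09 and 0.11 in both regions.

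The ATP-Mg/phosphate carriers adjust the adenine nucleotide pool of the matrix, most of them in response to calcium. All 5 were below 0 in the cerebellum (median -0.04) and 4 of 5 in the hippocampus (median -0.04), none past an unadjusted p of 0.05. Slc25a23 had cerebellar values of 0.17, -0.13, 0.04 and 0.01 in mutant replicates 1 to 4 and -0.05, -0.04, 1.10 and -0.01 in wild-type replicates 1 to 4. Wild-type replicate 3 stood far above the other 7 arrays, which overlapped. The difference was -0.23 (SE 0.19, unadjusted p = 0.245, limma adjusted p = 0.917), and it was 0.06 without that array. The same array set its within-genotype SD of 0.41, at the 99.7 percentile of all genes, and its age difference of -0.30, which was -0.02 without it. This array also held 77 of the 134 empty values of the file, and wild-type hippocampus replicate 3 held 57. Slc25a24, Slc25a41 and Slc25a54 changed sign in the cerebellum when 1 array was left out, and Slc25a25 kept it, at -0.08.

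The uncoupling proteins and their relatives let protons or other ions leak across the inner membrane, or carry metabolites. Ucp3 differed by 0.09 (SE 0.07, unadjusted p = 0.248, limma adjusted p = 0.918) in the cerebellum and 0.06 in the hippocampus. Slc25a27 (Ucp4) and Slc25a14 (Ucp5), the neuronal relatives, differed by -0.09 and 0.05 in the cerebellum and 0.03 and 0.10 in the hippocampus. Slc25a30 differed by 0.10 and 0.08. All 4 were thus above 0 in the hippocampus and 3 of 4 in the cerebellum, none past an unadjusted p of 0.05. These signs are of means over probe sets that often disagreed. In the hippocampus probe sets ran from -0.13 to 0.21 for Slc25a27, -0.016 to 0.22 for Slc25a30 and -0.043 to 0.16 for Ucp3. In the cerebellum those of Slc25a30 and Ucp3 also disagreed in sign, and Slc25a14 rests on 1 probe set.

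The iron carriers, or mitoferrins, bring iron to the matrix for heme and iron-sulfur clusters, Slc25a37 chiefly in red cell precursors and Slc25a28 in other cells. Slc25a37 had cerebellar values of -0.17, -0.12, 0.05 and 0.02 in mutant replicates 1 to 4 and -0.11, -0.02, 0.24 and 0.06 in wild-type replicates 1 to 4. Replicates 1 and 2 of each genotype were below 0, and the genotypes overlapped. Hippocampal values were 0.10, -0.24, 0.01 and -0.12 in mutants and 0.18, -0.10, 0.07 and -0.01 in wild types and overlapped too. The differences were -0.10 (SE 0.09, unadjusted p = 0.279, limma adjusted p = 0.929) in the cerebellum and -0.09 (SE 0.09, unadjusted p = 0.301, limma adjusted p = 0.802) in the hippocampus. The first was -0.03 without wild-type cerebellum replicate 3 and -0.16 with age as a covariate, and the second -0.03 without mutant hippocampus replicate 2. Slc25a37 rests on 1 probe set. The probe set left out, which names Gm16867 beside Slc25a37, differed by -0.04 in the cerebellum and by 0.26, the other way, in the hippocampus. Of 10 blood cell genes listed, 6 were measured, and their mean was -0.07 to -0.01 on cerebellar mutant arrays and 0.02 to 0.22 on wild-type ones. In the hippocampus it was -0.17 to -0.04 and 0.03 to 0.46. By gene, 3 of 6 were above 0 in the cerebellum and 2 of 6 in the other region, with 2 lower past an unadjusted p of 0.05 in each region and 1 higher in the hippocampus. The 2 lower genes were Alas2, at -0.97 in the cerebellum and -1.19 in the hippocampus, and Hbb-b2, at -0.38 and -0.59. The median over the list was 0.0032 in the cerebellum and -0.06 in the hippocampus. The part of the blood cell genes in the result was not tested.

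Slc25a28 had cerebellar values of -0.00094, -0.13, -0.11 and 0.03 in mutant replicates 1 to 4 and 0.00094, -0.20, 0.24 and 0.05 in wild-type replicates 1 to 4. Wild types spanned the mutants on both sides, and the difference was -0.08 (SE 0.09, unadjusted p = 0.401, limma adjusted p = 0.942). It was -0.0034 without wild-type replicate 3, the highest array. Hippocampal values were 0.13, -0.22, 0.04 and -0.02 in mutants and 0.02, 0.08, -0.13 and -0.03 in wild types, a difference of -0.0012 with an interval of -0.19 to 0.19.

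Cofactor and nucleotide carriers were above 0 for 7 of 8 in the cerebellum (median 0.07) and 3 of 8 in the hippocampus (median -0.02), none past an unadjusted p of 0.05. They carry coenzyme A (Slc25a42), peroxisomal cofactors (Slc25a17), S-adenosylmethionine (Slc25a26), folate or flavin (Slc25a32), pyrimidine nucleotides (Slc25a33, Slc25a36) and NAD (Slc25a51). Slc25a16, linked to coenzyme A, had cerebellar values of 0.13, 0.29, -0.18 and 0.50 in mutant replicates 1 to 4 and 0.004, -0.08, -0.0053 and -0.004 in wild-type replicates 1 to 4. The wild types lay within 0.1 of each other, while the mutants stood on both sides of them, with replicates 4 and 2 highest. In the hippocampus it had values of -0.15, -0.01, 0.11 and -0.11 in mutant replicates 1 to 4 and -0.05, 0.35, 0.01 and 0.08 in wild-type replicates 1 to 4, which overlapped. The difference was 0.20 (SE 0.12, unadjusted p = 0.0946, limma adjusted p = 0.884) in the cerebellum and -0.14 in the hippocampus. The contrast of the regions was -0.35 (SE 0.16, unadjusted p = 0.0486, limma adjusted p = 0.867), and -0.13 without the 2 poly-A arrays.

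Slc25a26 had cerebellar values of 0.07, 0.09, 0.07 and 0.04 in mutant replicates 1 to 4 and 0.03, -0.04, -0.04 and 0.0012 in wild-type replicates 1 to 4. Mutants were higher without overlap, by a small margin, with a difference of 0.08 (SE 0.08, unadjusted p = 0.316, limma adjusted p = 0.935), and its 2 probe sets gave -0.0012 and 0.16. That SE shares the spread of both regions, and the SD of Slc25a26 within genotype was 0.028 in the cerebellum and 0.16 in the hippocampus. Slc25a46, a member of the outer membrane that acts in mitochondrial shape, had values of 0.01, -0.0043, 0.01 and 0.08 in mutant replicates 1 to 4 and -0.02, -0.02, -0.06 and -0.05 in wild-type replicates 1 to 4. The cerebellar difference was 0.06 (SE 0.05, unadjusted p = 0.239, limma adjusted p = 0.916), and the hippocampal one -0.07 (SE 0.05, unadjusted p = 0.193, limma adjusted p = 0.739), with wild-type hippocampus replicate 1 highest at 0.21.

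Members of less settled substrate numbered 6. Slc25a34 had hippocampal values of -0.03, 0.22, 0.17 and 0.03 in mutant replicates 1 to 4 and -0.15, -0.08, -0.21 and 0.07 in wild-type replicates 1 to 4. Mutant replicates 2 and 3 were above all wild types, and the other arrays overlapped. The difference was 0.19 (SE 0.09, unadjusted p = 0.039, limma adjusted p = 0.599). In the cerebellum it had values of -0.19, 0.22, 0.09 and 0.10 in mutant replicates 1 to 4 and -0.0024, -0.13, -0.13 and 0.0024 in wild-type replicates 1 to 4, with mutant replicate 1 the lowest array, and a difference of 0.12. The average over regions was 0.15 (SE 0.07, unadjusted p = 0.0517, limma adjusted p = 0.586).

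Slc25a53 had cerebellar values of -0.04, 0.20, 0.06 and 0.27 in mutant replicates 1 to 4 and -0.0086, -0.12, -0.01 and -0.04 in wild-type replicates 1 to 4. Mutant replicates 2, 3 and 4 were above all wild types and mutant replicate 1 was not. The difference was 0.17 (SE 0.08, unadjusted p = 0.0572, limma adjusted p = 0.884), and 0.06 without mutant replicates 2 and 4. Slc25a53 hippocampal values were -0.14, 0.0052, 0.20 and -0.05 in mutants and -0.15, 0.12, 0.07 and 0.09 in wild types, with the lowest array of each genotype at replicate 1, and the difference was -0.03. Slc25a35, Slc25a45, Slc25a47 and Slc25a48 lay between -0.10 and 0.13 in both regions.

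The genotype differences of the 2 regions had little in common across members. The sign was the same for 25 of 45 members (55.6%, against 53.3% of all genes), 13 higher and 12 lower in both. Pearson's r over the 45 members was 0.07 and Spearman's rho 0.13, as a description across genes, which are not independent. Over all genes r was 0.07.

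Age was the other labelled difference. Older animals (24 months or more) were replicates 1 and 2 of every group and younger ones (23 months or less) replicates 3 and 4, so age and anything else shared by those numbers cannot be told apart. With genotype as a term, 3 of 45 members were past an unadjusted p of 0.05 in the cerebellum (4.21% of all genes) and 4 (8.89%) in the hippocampus (6.55%). In the cerebellum 18 members were above 0, against 52.6% of all genes, and in the hippocampus 22, against 45.3%. The 4 older arrays did not overlap the 4 younger for 3 members in the cerebellum (6.67%, against 2.26%) and 1 in the hippocampus (2.22%, against 3.5%).

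Slc25a13 (citrin) was higher at the older age in the cerebellum, where values of 0.14, 0.32, -0.09 and -0.18 in mutant replicates 1 to 4 and 0.09, 0.09, -0.12 and -0.22 in wild-type replicates 1 to 4 gave 4 older arrays above 0 and 4 younger arrays below it. The older arrays averaged 0.16 ± 0.11 and the younger -0.15 ± 0.06 (SD, n = 4). The difference was 0.31 (SE 0.09, unadjusted p = 0.00267, limma adjusted p = 0.999). In the hippocampus it had values of -0.15, 0.02, -0.006 and 0.12 in mutant replicates 1 to 4 and 0.006, -0.40, 0.18 and -0.05 in wild-type replicates 1 to 4, lower at the older age with overlap. That difference was -0.19 (SE 0.09, unadjusted p = 0.0408, limma adjusted p = 0.749), and -0.10 without wild-type replicate 2, at -0.40. The age effects of the regions differed by -0.51 (SE 0.12, unadjusted p = 0.00092, limma adjusted p = 0.942), hippocampus minus cerebellum, in a contrast added after the values were seen. In that contrast 2 members were past an unadjusted p of 0.05, against 4.05% of all genes, and 0% of genes were called.

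Slc25a54, placed among the ATP-Mg/phosphate carriers, was also higher at the older age in the cerebellum, with values of 0.01, 0.11, -0.08 and -0.01 in mutant replicates 1 to 4 and 0.15, 0.16, -0.05 and -0.13 in wild-type replicates 1 to 4. The older arrays lay above the younger without overlap, and the difference was 0.17 (SE 0.07, unadjusted p = 0.0204, limma adjusted p = 0.999). In the hippocampus it had -0.12, -0.22, -0.06 and 0.13 in mutants and 0.14, -0.0021, 0.09 and 0.0021 in wild types, and the age difference was -0.09. Slc25a37, with the cerebellar values given above, was lower in all 4 older arrays than in any younger one, by -0.20 (SE 0.08, unadjusted p = 0.0249, limma adjusted p = 0.999). Slc25a18 followed in the cerebellum, with an age difference of 0.14 (SE 0.08, unadjusted p = 0.108, limma adjusted p = 0.999), and its age groups overlapped.

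In the hippocampus the members of smallest p by age were all lower in older animals. Slc25a38, the glycine carrier for heme synthesis, had values of -0.09, -0.04, 0.03 and 0.27 in mutant replicates 1 to 4 and -0.21, -0.02, 0.02 and 0.07 in wild-type replicates 1 to 4. Each older array was below 0 and each younger one above it. The difference was -0.19 (SE 0.06, unadjusted p = 0.0109, limma adjusted p = 0.642), and -0.07 without the 3 arrays of raised cerebellar, meningeal or choroid plexus genes. Its cerebellar values were -0.0068, 0.03, -0.02 and 0.0068 in mutants and -0.07, 0.04, 0.15 and -0.01 in wild types.

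Slc25a26 had hippocampal values of -0.11, -0.02, -0.02 and 0.10 in mutant replicates 1 to 4 and -0.32, 0.04, 0.02 and 0.16 in wild-type replicates 1 to 4, and Slc25a33 had values of -0.13, -0.12, 0.02 and 0.08 in mutant replicates 1 to 4 and -0.32, 0.04, 0.10 and -0.02 in wild-type replicates 1 to 4. Wild-type replicate 1, the array with raised cerebellar neuron genes, was the lowest for both, at -0.32. The age differences were -0.17 (SE 0.07, unadjusted p = 0.0308, limma adjusted p = 0.731) and -0.18 (SE 0.07, unadjusted p = 0.0319, limma adjusted p = 0.731). Without that array they were -0.08 and -0.10, and without the 3 arrays of raised cerebellar, meningeal or choroid plexus genes they were -0.03 and -0.06. The cerebellar values of Slc25a33 were 0.02, -0.20, -0.03 and 0.08 in mutants and 0.04, -0.01, 0.0033 and -0.0033 in wild types, with an age difference of -0.05.

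**Figure D4:**
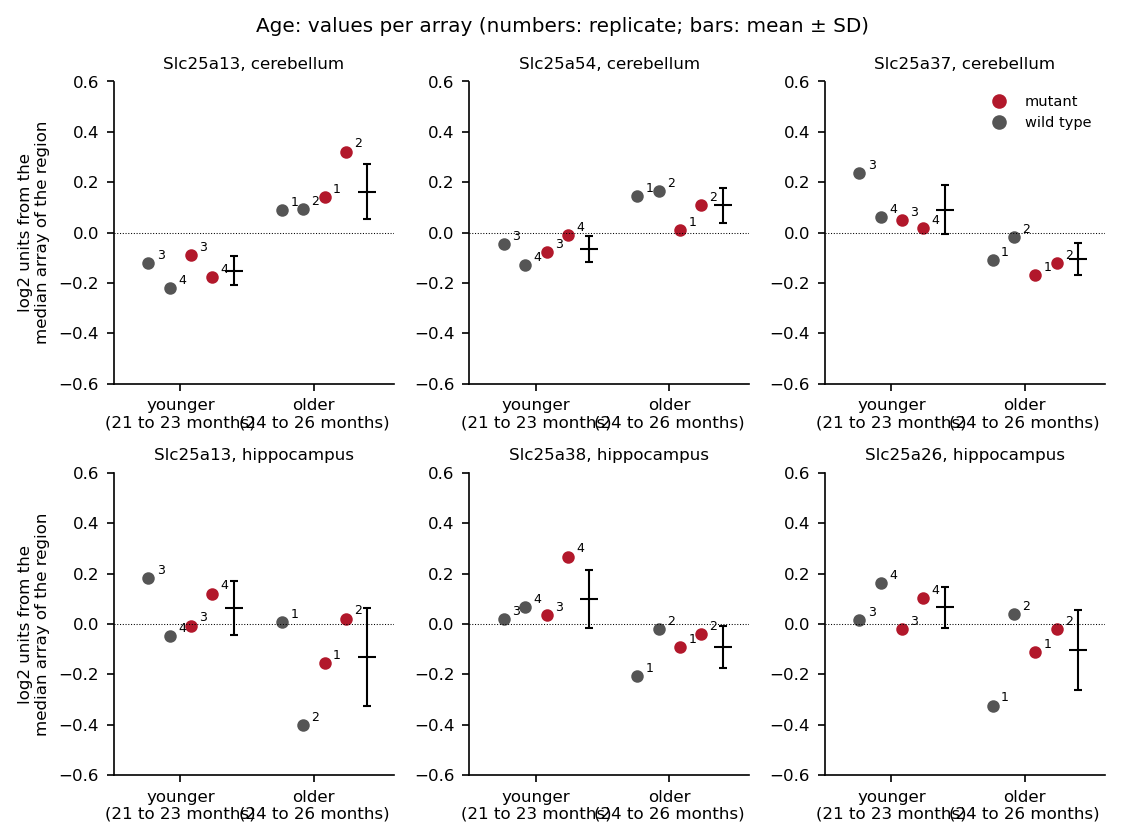
Values of 5 members on each array by age (younger 21 to 23 months, older 24 to 26 months; y axis, log2 units from the median array of the region), with wild types in grey, mutants in red, replicate numbers beside the points and mean ± SD of 4 arrays as a bar. The age groups do not overlap for Slc25a13, Slc25a54 and Slc25a37 in the cerebellum and Slc25a38 in the hippocampus, while Slc25a26 has wild-type replicate 1 far below the rest at -0.32.

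Genes around the carriers gave no call either. Of 10 measured genes of the TIM22 import route, 8 were above 0 in the cerebellum (median 0.04) and 7 in the hippocampus (median 0.06), with 1 past an unadjusted p of 0.05. That gene was Timm10, a chaperone of the intermembrane space that guides carriers, at 0.15 in the cerebellum (SE 0.07, unadjusted p = 0.0436, limma adjusted p = 0.884). It was 0.12 in the hippocampus. Of 22 other mitochondrial membrane transporters, 11 were above 0 in the cerebellum and 14 in the hippocampus. Ucp1, an uncoupling protein outside the member rule, was at 0.25 in the cerebellum (SE 0.13, unadjusted p = 0.0696, limma adjusted p = 0.884) and at 0.05 in the hippocampus. Mtch2, an outer membrane relative of the carriers, was at -0.12 (SE 0.05, unadjusted p = 0.0301, limma adjusted p = 0.587) in the hippocampus. Sfxn1, a serine transporter, was at 0.15 (SE 0.06, unadjusted p = 0.0332, limma adjusted p = 0.595) there. The 6 enzymes of the malate-aspartate and glycerophosphate shuttles had 2 above 0 in the cerebellum and 5 in the hippocampus, none past an unadjusted p of 0.05. Got2, the mitochondrial aspartate aminotransferase, was at -0.08 in the cerebellum, and Mdh1, the cytosolic malate dehydrogenase, at 0.03 in the hippocampus.

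Where several probe sets read 1 member, they often disagreed in sign. Of 24 such members, 10 had probe sets of a single sign in the cerebellum and 10 in the hippocampus. Slc25a20, Slc25a24, Slc25a32, Slc25a42 and Slc25a46 had a single sign in both regions. The widest spread among probe sets was for Slc25a27 in the hippocampus, from -0.13 to 0.21. Replicates of the members varied as those of other genes did, with a median SD within genotype of 0.0995 in the cerebellum (0.102 for all genes) and 0.0998 in the hippocampus (0.0986).

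Promoter windows of RefSeq were found for 35 of the 45 members, 44 windows in all. All windows here are the 32851 windows of 27025 RefSeq genes, measured on the arrays or not. The median GC content of member windows was 57.8%, against 52.4% in all windows, and the median ratio of observed to expected CpG was 0.537 against 0.373. GC boxes (GGGCGG) stood in 72.7% of member windows and in 32.7% of all windows, and CCAAT boxes in 45.5% and 33.8%. TATAAA was found in 2.27% of member windows (Slc25a18) and in 12.4% of all. The cAMP response element TGACGTCA was found in 4.55% of member windows (Slc25a25 and Slc25a36) and in 1.55% of all. The ERR element TCAAGGTCA and the ATF4 element TGATGNAAN were found in no member window, against 0.387% and 3.44% of all. These motifs were searched on both strands, and windows of 1 gene with several start sites can overlap.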

How the data were processed

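The values deposited by the authors are log differences, taken as log2. The submitters' processing notes name GCOS 4.0, and 5 ug of total RNA was labelled, per the labels' protocols. How probes were summarised, normalized and centred is not given in the sources used here. In each region 99.9% of probe sets had a median within 1e-05 of 0 over 8 arrays. Base 10 does not hold, since a probe set spanned 10.3 units and a 16-bit scanner covers 4.82 decades. With base e, differences would be 1.44 times larger. The description field of the hippocampus samples names cerebellum, and title, source and tissue, which name hippocampus, were followed.

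Of 45101 probe sets, 64 controls and 133 with an empty value were left out. The mean over the 34843 probe sets of 1 symbol gave 18168 genes. The fit used limma 3.58.1 in R 4.3.3 on 16 arrays with 4 group means (12 residual degrees of freedom, 10 with age terms), and on 8 means over both regions for the average (6). Only the average matches arrays by replicate number, across regions, and it was also fitted with no pairing. Two-sided p-values were adjusted by Benjamini and Hochberg's method across all genes with a threshold of 0.05, and the fit was tested on simulated data. The simulated differences were 1 unit in either direction, larger than any member's, so that test does not cover differences of the members' size. The replicates are called biological, so p-values rest on the spread among these samples. In limma the spread of a gene is drawn toward that of all genes, and in all fits but the average it pools both regions. Each array was left out in turn, and other scalings, probe set summaries and terms were tried.

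Members and lists were chosen with earlier results of these data known. Array values are given for Slc25a4, Slc25a5, Slc25a31, Slc25a28, Slc25a37 and the 4 members of smallest p in each comparison. Slc25a10, Slc25a23 and Slc25a46 were added after their values were seen. From other lists at most the 2 genes of smallest p per region are named. Same-numbered arrays deviated with correlations of -0.19 to 0.23 between genotypes and -0.17 to 0.17 between regions. Weak correlations cannot tell whether a cerebellum and a hippocampus of the same number came from the same animal. Within each genotype the ages match by number across regions. The empty values fell on wild-type replicate 3 of the cerebellum (77) and of the hippocampus (57). No block was used in the other main fits, so the contrast between regions took all arrays as independent.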

Additional observations from a re-analysis of the deposited data

Results flagged for a closer look

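Among 84 groups of 4 arrays, over the 21 members with values given by array, 5 held 1 array far from the other 3. Chance alone would set about 5% of groups apart. Most of these members were chosen by their p or after their values were seen, so the count cannot be set against that share. Slc25a53 stood at -0.15 on wild-type hippocampus replicate 1, with the nearest of its group at 0.07. Slc25a40 stood at -0.061 on mutant hippocampus replicate 1, with the nearest at 0.14. Slc25a16 stood at -0.077 on wild-type cerebellum replicate 2, with the nearest at -0.0053. Slc25a23 stood at 1.10 on wild-type cerebellum replicate 3, with the nearest at -0.013. Slc25a46 stood at 0.21 on wild-type hippocampus replicate 1, with the nearest at 0.02. Both hippocampus arrays carried raised granule neuron genes, at 2.48 and 0.87.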

How the results depend on the processing

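No alternative called a member in any of the 6 comparisons. The smallest adjusted p of a member ran from 0.379 to 1 over the cerebellum settings and from 0.327 to 1 over the hippocampus settings. Over the settings with 1 value a gene, members past an unadjusted p of 0.05 numbered 1 to 6 in the cerebellum (2.98% to 9.91% of all genes), 2 to 5 in the hippocampus (4.62% to 9.52%), 1 to 6 between regions (2.96% to 7.43%), 1 to 5 on average (5.77% to 11.1%), 2 to 5 by age in the cerebellum (2.71% to 9.48%) and 1 to 5 by age in the hippocampus (2.96% to 11.9%). The replicate block left 0 members called, with 5 members on average over regions past an unadjusted p of 0.05 (8.68% of all genes) in place of 2 (8.51%). With no pairing of the regions 5 were past it (7.63%).

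The median difference over members in the cerebellum was 0.00062 and turned to -0.0082 after quantile normalization and -0.0061 with array medians subtracted. It was 0.017 with age as a covariate, 0.022 without the low-choroid and low-hybridization arrays, and 0.00015 to 0.024 with 1 array left out. In the hippocampus it was 0.0086, against -0.014 after quantile normalization, -0.0047 with array medians subtracted, -0.0013 without the 3 arrays of raised cerebellar, meningeal or choroid plexus genes, -0.0060 without the 2 arrays of raised cerebellar neuron genes, and 0.00045 to 0.028 with 1 array left out. Hippocampal differences near 0 turned sign. With age as a covariate Slc25a31 was 0.014 and Slc25a28 0.011. With 1 array left out Slc25a31 ran from -0.058 to 0.048, Slc25a28 from -0.051 to 0.068, Slc25a4 from -0.024 to 0.021 and Slc25a5 from -0.00031 to 0.031. The cause was not tested. The settings without named arrays, the counts at an unadjusted p, the average with no pairing and the age contrast between regions were chosen after seeing the data.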
